A study of Gorilla gorilla gorilla with 13 samples.

Results

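Kinesins are motor proteins that use ATP to move along or to remodel microtubules, and the 45 genes described here are the kinesin heavy chains (KIF and KIFC symbols) and the kinesin light chains (KLC symbols) measured in gorilla brain organoids. They were taken by symbol from the 18137 genes of a deposited table of read counts on the human genome build hg38, with no use of their values. By their known roles they were grouped into 13 mitotic kinesins, 19 transport kinesins and light chains, 5 microtubule-regulating kinesins, 6 ciliary and centriolar kinesins and 2 others. Cerebral organoids are cultures of developing brain tissue grown from pluripotent stem cells, here all from the gorilla induced pluripotent stem cell line GC1 and collected in week 8 of culture, give or take 3 days. The 4 populations sorted from them were neurons selected for BCL11B (N, n = 2), basal intermediate progenitors (bIP, n = 3), basal radial glia (bRG, n = 4) and apical radial glia (aRG, n = 4). All groups come from this 1 line, and the labels name no treatment. Each of the 13 libraries was a Smart-seq2 library from 10000 sorted cells, amplified over 12 to 17 PCR cycles without molecular identifiers. A single line cannot show how gorilla individuals vary. The labels name no separate cultures behind the replicate libraries, and p-values below therefore describe library-to-library spread, part of which may be technical.

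Dividing cells need kinesins that build the spindle, move chromosomes and complete the cut between daughter cells, and these genes are transcribed mostly around mitosis. Neurons, which no longer divide, depend on other kinesins that carry vesicles, mitochondria and RNA along axons and dendrites, among them the kinesin-1 motors (KIF5A, KIF5B and KIF5C with the KLC light chains), the kinesin-2 motors (KIF3A, KIF3B, KIF3C and KIF17) and the kinesin-3 motors (KIF1A, KIF1B, KIF1C, KIF13A, KIF13B and KIF16B). The organoids hold both kinds of cell: apical and basal radial glia are the dividing neural stem cells of the cortex, and intermediate progenitors are their committed daughters on the way to neurons.

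Total counts per library were 5464721 to 12524938, and of the 45 genes 44 had enough counts to be tested. KIF2B, a kinetochore depolymerase of the mitotic group, was not tested, with 29 counts over the 13 libraries. Levels are given as CPM, read counts divided by TMM-scaled library size, which are not corrected for gene length and are therefore compared between libraries and not between genes. Values of single libraries are listed in the order of the library numbers, with a neuron library whose number matches no label, called the unnumbered neuron library, after neuron library 1. The marker genes set several libraries apart. Summed levels of 10 neuron markers lay at 7711 to 8113 CPM in N and at 5218 to 5505 in bIP, against 1248 to 2099 in bRG and 1050 to 1558 in aRG, so by these markers the bIP libraries stood nearer to the neurons. EOMES, which defines intermediate progenitors, stood at 6.26 ± 0.68 CPM in N, 85.3 ± 49.1 in bIP, 367 ± 92.9 in bRG and 143 ± 84.4 in aRG. It was thus below the bRG level in bIP, but well above the level in N (log2 fold change in N against bIP -3.77, edgeR adjusted p = 0.0334). The other 7 of 8 intermediate progenitor markers were not called between N and bIP, and the median log2 fold change of the 8 was -0.0486. Their summed level was 668 to 702 CPM in N, 464 to 705 in bIP, 876 to 1126 in bRG and 428 to 665 in aRG. The largest part of the sum in N and bIP was ELAVL4. It measured 453.5 ± 13.6 CPM in N, 332 ± 59.8 in bIP, 278 ± 44.5 in bRG and 176 ± 31.8 in aRG. The like sums of N and bIP therefore rest largely on this 1 gene. In bIP against bRG 4 of the 8 markers were lower and 0 higher, where 8.44% of all genes were lower and 8.25% higher. The bIP libraries also held 1409 to 3746 CPM of 8 Cajal-Retzius neuron markers, against 52.7 to 185 in bRG. Summed levels of 8 choroid plexus markers were 252 to 1329 CPM in bRG and 1635 to 7894 in aRG, and those of 8 mesenchyme markers 112 to 146 CPM in bRG and 164 to 387 in aRG. Most of the choroid plexus sum was TTR, at 627.6 ± 422.5 CPM in bRG and 4512 ± 2535 in aRG. Of these markers RSPO2 and LMX1A had higher means in bRG, and the others had lower means there. In each of the 2 lists 1 of 8 genes was called lower in bRG against aRG and 0 higher, where 1.23% of all genes were called lower. Of these marker lists, TWIST1 of the mesenchyme list was the single gene under 1 CPM on average. In bRG library 3 the nuclear RNA MALAT1 took 21.3% of counts in the second deposited table, against 6.35% to 10.8% in the other libraries. In these bulk samples fewer cells of a type and less RNA per cell cannot be told apart.

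Most mitotic kinesins were lower in bRG than in aRG and lower again in bIP and N. In bIP or N against a radial glia population, 6 to 8 of 19 transport kinesins and light chains were higher and 1 to 2 lower. Over these 4 comparisons 8.25% to 10.6% of all genes were called higher and 8.44% to 9.98% lower. The falls in the transport group were thus near the share over all genes. By edgeR no transport kinesin was called between bRG and aRG, where 1.23% of all genes were called lower and 0.0298% higher. No kinesin was called between N and bIP, where 0.113% of all genes were called. Both counts of 0 are thus near the share over all genes. Over the 4 populations edgeR's quasi-likelihood test called 24 of the 44 tested kinesins different (Benjamini-Hochberg adjusted p under 0.05, as for every call below), where 22.5% of all 16804 genes tested were called. They were 11 of 12 mitotic kinesins, 9 of 19 transport kinesins and light chains, 3 of 5 microtubule-regulating kinesins, 1 of 6 ciliary and centriolar kinesins and neither of the other 2. Of the 13 mitotic kinesins, 12 had their highest mean level in aRG and 12 their lowest in N. Of the 19 transport kinesins and light chains, 14 had their highest mean in N, 2 in bIP, 1 in bRG and 2 in aRG.

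As a share of all kinesin counts, the mitotic group took 1.94% and 2.09% in the N libraries, 2.62% to 3.37% in bIP, 8.72% to 11.1% in bRG and 32.9% to 50.3% in aRG. The ranges of the 4 populations did not touch. The transport group took 71.8% and 73.9% in N, 73.0% to 74.4% in bIP, 68.1% to 70.4% in bRG and 38.8% to 52.4% in aRG. The summed level of the transport group differed less, at 4983 and 4410 CPM in N, 3360 to 4304 in bIP, 2630 to 3711 in bRG and 2799 to 3750 in aRG. The mitotic sum was 135 and 125 CPM in N, 148 to 159 in bIP, 419 to 460 in bRG and 1819 to 3830 in aRG. The microtubule-regulating group took 24.0% and 20.8% in N, 19.2% to 21.3% in bIP, 13.7% to 15.6% in bRG and 7.05% to 10.7% in aRG.

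**Figure D1:**
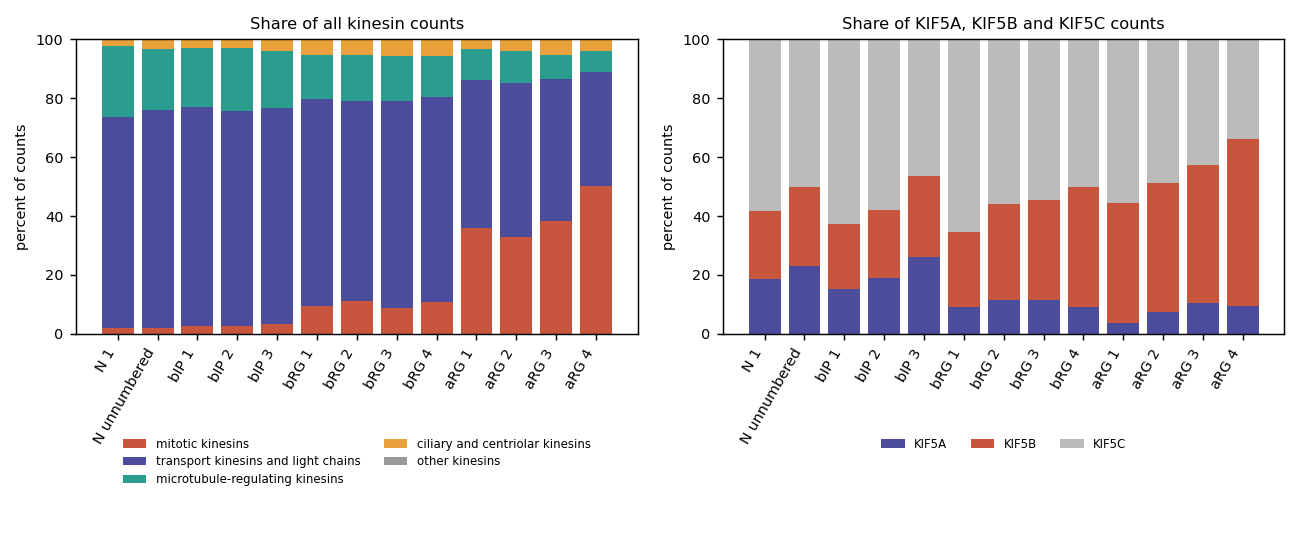
Left, the percent of all kinesin counts in each library taken by each of the 5 groups of kinesins, and right, the percent of KIF5A, KIF5B and KIF5C counts taken by each of these 3 genes; each bar is 1 library, ordered N, bIP, bRG, aRG. The mitotic share is at most 3.37% in N and bIP and at least 32.9% in aRG, and the KIF5A share is at least 15.2% in N and bIP and at most 11.6% in bRG and aRG.

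The first comparison set basal against apical radial glia, the 2 stem cell populations. In bRG 12 kinesins were lower and 0 higher, where 1.23% of all genes tested were called lower and 0.0298% higher. Of the 12, 11 were mitotic kinesins and the other was KIF24. The median log2 fold change was -2.74 over the 12 tested mitotic kinesins and 0.038 over all genes. DESeq2, its size factors within edgeR, the second deposited table and the removal of bRG library 3 each gave 12 calls. Without aRG library 4 there were 10.

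KIF14, a kinesin of the midbody that is needed to complete cytokinesis, measured 39.3, 39.8, 21.9 and 27.4 CPM in the bRG libraries, against 298, 187, 264 and 431 in the aRG libraries. The lowest aRG library lay well above the highest bRG library. This was a log2 fold change of -3.20 (SE 0.32 in edgeR, adjusted p = 9.75e-05). KIF2C, also called MCAK, which takes apart microtubules at centromeres, measured 34.9, 27.6, 27.6 and 40.9 CPM in bRG, against 204, 177, 186 and 352 in aRG. Here aRG library 4 stood above the other 3 aRG libraries, and no bRG library came near any of them. As a log2 fold change this was -2.81 (SE 0.30 in edgeR, adjusted p = 9.75e-05).

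KIF23, the motor of the centralspindlin complex that organises the cleavage furrow, measured 37.1, 34.9, 39.0 and 44.1 CPM in bRG, against 315, 165, 190 and 352 in aRG. The bRG libraries were close to one another, the aRG libraries were not, and the populations did not overlap. On the log2 scale the fold change was -2.72 (SE 0.29 in edgeR, adjusted p = 9.75e-05). KIF22, a chromokinesin that binds chromosome arms and pushes them to the spindle equator, measured 38.8, 48.6, 30.7 and 59.9 CPM in bRG, against 192, 176, 219 and 407 in aRG. All 4 aRG libraries lay above the bRG ones. Its log2 fold change was -2.48 (SE 0.29 in edgeR, adjusted p = 0.000148). KIF15, a spindle kinesin that can take over part of the work of KIF11, measured 37.9, 33.3, 41.6 and 23.7 CPM in bRG, against 217, 112, 117 and 205 in aRG. Its aRG libraries fell into a higher pair (1 and 4) and a lower pair (2 and 3), both above bRG. As a log2 fold change this was -2.26 (SE 0.28 in edgeR, adjusted p = 0.000281).

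The other mitotic kinesins called lower in bRG ranged in log2 fold change from -1.95 to -3.49. KIF20B, a kinesin of late cytokinesis, was the smallest fall, with 116 ± 50.4 CPM (bRG) and 447 ± 151 CPM (aRG), SD over 4 libraries each. KIF18A, which dampens chromosome movements at kinetochore microtubules, measured 24.4 ± 15.8 CPM in bRG against 113 ± 52.4 in aRG. KIF20A, which brings the chromosomal passenger complex to the central spindle, measured 40.3 ± 9.56 CPM in bRG and 275 ± 101 in aRG. KIF11, the motor that pushes spindle poles apart, measured 22.8 ± 3.55 CPM in bRG and 157 ± 58.8 in aRG. KIFC1, a minus-end motor that draws spindle poles together, measured 20.1 ± 10.7 CPM in bRG and 141 ± 57.6 in aRG. In each of these 5 genes the highest bRG library lay below the lowest aRG library. The share of all genes that separate in this way was not counted.

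KIF18B, which with KIF2C shortens astral microtubules, had the largest fitted fall of the group, with libraries far apart. It measured 18.8, 45.4, 1.06 and 44.0 CPM in bRG, against 153, 246, 296 and 535 in aRG, and the value in bRG library 3 rested on 9 counts. On the log2 scale the fold change was -3.49 (SE 0.70 in edgeR, adjusted p = 0.0116). The call ended without aRG library 4 (edgeR adjusted p = 0.0641) and without bRG library 1 (0.0542). KIF4B, the remaining tested member, had few counts, 1.51 ± 1.51 CPM in bRG and 2.65 ± 1.48 CPM in aRG, and was not called (edgeR adjusted p = 0.833). It is an intronless near-copy of KIF4A, so its reads are uncertain.

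Among the aRG libraries, library 4 was the highest in 9 of the 12 tested mitotic kinesins and library 2 the lowest in 10. The summed level of 8 proliferation markers was 861 to 1462 CPM in bRG, against 4880, 2977, 2742 and 5468 CPM in the aRG libraries, of which library 4 was again the highest. Of these 8 markers 7 fell in bRG, where 1.23% of all genes fell, and the smallest p-values were those of BUB1 (log2 fold change -2.40) and TOP2A. The share of cells in mitosis and the level in each such cell cannot be told apart here. The choroid plexus sum, mostly TTR, and the mesenchyme sum given above were also higher in aRG, and their part in the mitotic values was not tested.

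**Figure D2:**
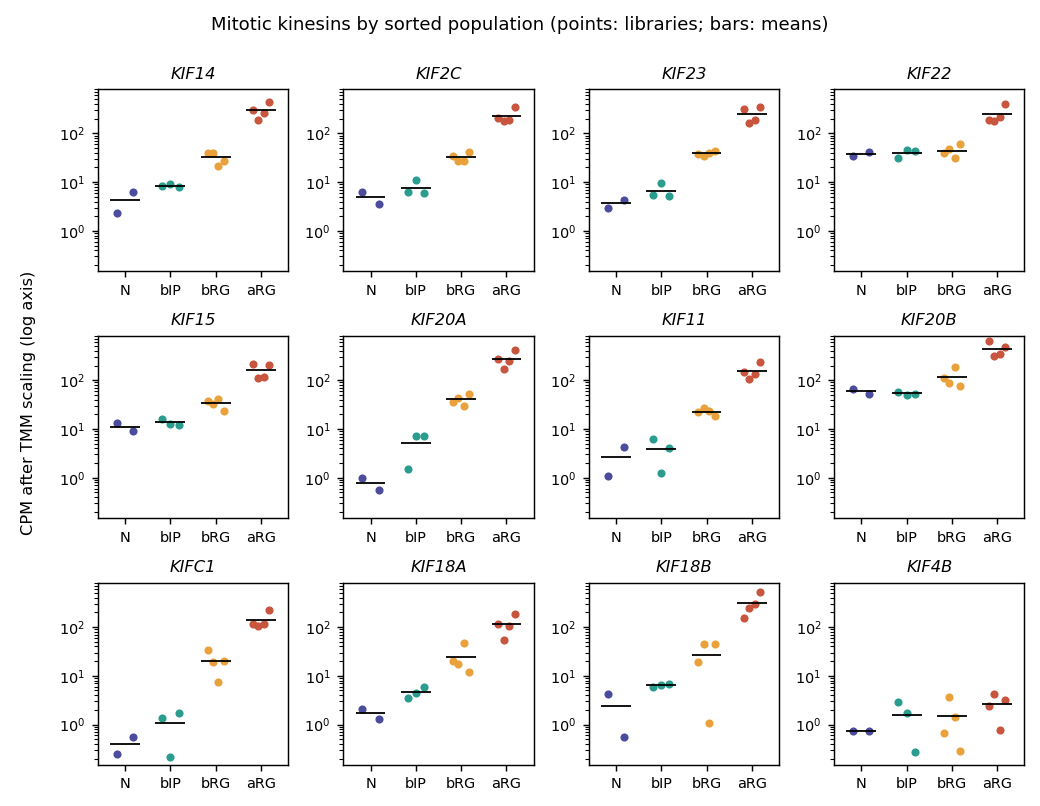
Levels of the 12 tested mitotic kinesins in CPM after TMM scaling (log axis) in the sorted populations N, bIP, bRG and aRG; each point is 1 library and each bar the mean of a population. For 11 of the genes, all but KIF4B, the 4 aRG points lie above every other point, while KIF22 is level across N, bIP and bRG at 30.7 to 59.9 CPM. How many of all genes have such a split was not counted.

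The next comparison set the libraries labelled bIP against aRG, and 24 kinesins differed, 14 lower and 10 higher in bIP. The 8 proliferation markers summed to 129 to 176 CPM in bIP and 128 to 152 in N. By these markers, too, bIP stood near the neurons, so the values below describe the sorted libraries and not intermediate progenitors in general. Over all genes tested 9.98% were lower and 8.47% higher. The 14 were the same 11 mitotic kinesins, KIF24 and the transport kinesins KIF13A and KIF5B, while the 10 were 7 transport and 3 microtubule-regulating kinesins. The median log2 fold change was -5.01 over mitotic kinesins and 0.78 over transport kinesins and light chains, beside -0.035 over all genes. Against bRG, 12 kinesins were lower and 9 higher in bIP, where 8.44% of all genes were lower and 8.25% higher. Here 9 of the 12 falls were mitotic, and the medians were -2.09 for mitotic and 0.82 for transport kinesins beside -0.091 for all genes. These comparisons share libraries and are not independent of each other.

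Neurons gave a like count against both kinds of radial glia. In N against bRG 12 kinesins were lower and 11 higher, where 9.13% of all genes were lower and 10.6% higher, and 9 of the 12 were mitotic. In N against aRG 13 were lower and 12 higher, where 9.37% of all genes were lower and 10.4% higher, and 11 of the 13 were mitotic. Against bRG the median was -2.98 for mitotic and 1.09 for transport kinesins beside -0.085 for all genes. Against aRG it was -5.96 for mitotic and 0.87 for transport kinesins beside -0.053 for all genes. Neurons and bIP were not told apart in any kinesin by edgeR: 0 of 44 were called, where 0.113% of all genes were called. At an unadjusted p under 0.05 there were 6 kinesins and 1115 genes in all, and DESeq2 called 1 kinesin, KIF20A.

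Most mitotic kinesins were lower again in bIP and N than in bRG, 9 of 12 in each. KIF14 measured 2.33 and 6.16 CPM in N and 8.51, 9.12 and 7.91 in bIP, with bRG and aRG as given above. The N values lay below all bIP values and these below all bRG values. KIF14 fell by 6.09 on the log2 scale in N against aRG (SE 0.51 in edgeR, adjusted p = 2.82e-07) and by 1.91 in bIP against bRG (SE 0.35 in edgeR, adjusted p = 0.00078).

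KIF2C measured 6.37 and 3.64 CPM in N and 6.27, 10.8 and 5.93 in bIP. These 2 populations overlapped, and both lay below the 27.6 CPM of the lowest bRG library. KIF2C fell by 2.72 in N against bRG (SE 0.41 in edgeR, adjusted p = 0.000116) and by 2.09 in bIP against bRG (SE 0.33 in edgeR, adjusted p = 0.000234). KIF23 measured 2.94 and 4.39 CPM in N and 5.38, 9.65 and 5.12 in bIP. It had the smallest p-value of all kinesins in bIP against aRG, where it fell by 5.24 on the log2 scale (SE 0.37 in edgeR, adjusted p = 5.37e-08).

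KIF20A and KIFC1 rested on few counts in N. KIF20A measured 0.98 and 0.56 CPM in N, which rested on 8 and 6 counts, and 1.49, 7.10 and 7.10 CPM in bIP. All bIP libraries were above both N libraries, yet the difference between N and bIP was not called by edgeR (log2 fold change -2.81, SE 0.63, adjusted p = 0.127). DESeq2 called it (adjusted p = 0.00126), and so did edgeR without bIP library 1 (adjusted p = 0.021), while the other alternatives gave 0.0644 to 1. KIFC1 measured 0.25 and 0.56 CPM in N, which rested on 2 and 6 counts, against 106 to 227 CPM in aRG. The 3 bIP libraries held 9, 2 and 19 counts of it.

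By their means KIF22, KIF20B and KIF15 kept more of their bRG level in bIP and N than KIF14, KIF2C and KIF23 did. KIF22 measured 34.8 and 41.7 CPM in N, 31.95, 45.2 and 44.2 in bIP and 30.7 to 59.9 in bRG, so these 3 populations overlapped throughout. Its log2 fold change was -0.14 in bIP against bRG (SE 0.30 in edgeR, adjusted p = 0.824) and -0.22 in N against bRG (SE 0.35 in edgeR, adjusted p = 0.703), next to -2.48 in bRG against aRG. KIF20B measured 58.9 ± 9.64 CPM in N (n = 2), 53.7 ± 4.45 in bIP (n = 3) and 116 ± 50.4 in bRG. It was called lower in bIP than in bRG (log2 fold change -1.11, SE 0.32 in edgeR, adjusted p = 0.0208). That call ended without any 1 of the bIP libraries (edgeR adjusted p = 0.0576, 0.0902 and 0.0705 without library 1, 2 and 3), and edgeR did not call N against bRG (-0.98, adjusted p = 0.0682). DESeq2 called KIF20B there (0.0265), as did edgeR without bRG library 2 (0.0474) or 4 (0.0414). KIF15 measured 13.4 and 8.96 CPM in N and 16.1, 12.8 and 11.9 in bIP. It fell in N against bRG (log2 fold change -1.61, SE 0.37 in edgeR, adjusted p = 0.00417), a call that ended without the unnumbered neuron library (adjusted p = 0.0984). KIF20B was singled out here after its values were seen. In the gorilla RefSeq annotation (assembly NHGRI_mGorGor1-v2.1_pri) other genes overlap 18 of the 44 kinesins it holds, 10 of them by a protein-coding gene, KIF15 and KIF20A among these, and KIF20B by a noncoding one. Whether strand was used in counting is not given in the sources used here, and reads of overlapped kinesins are uncertain.

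Genes of proteins that work with mitotic kinesins fell as well. Of 16 such genes, among them the passenger complex, Aurora kinases and central spindle proteins, 15 fell in bRG against aRG (median log2 fold change -2.36), with the smallest p-values for CIT and CDCA8. CIT, the citron kinase that binds KIF14 at the midbody, measured 43.8 ± 13.7 CPM in bRG and 213 ± 34.8 in aRG (log2 fold change -2.28, SE 0.26 in edgeR, adjusted p = 9.88e-05). CDCA8, the borealin subunit of the passenger complex, measured 21.6 ± 7.11 CPM in bRG and 155 ± 72.5 in aRG. All 16 fell in bIP against aRG and 10 in bIP against bRG, with none higher. In N, 11 fell against bRG and 15 against aRG. Of all genes, 1.23% fell in bRG against aRG, 9.98% in bIP against aRG and 8.44% in bIP against bRG. In N, 9.13% of all genes fell against bRG and 9.37% against aRG. None of the 16 was called between N and bIP, which is near the 0.113% of all genes called there. CENPE, a kinetochore kinesin whose symbol is not a KIF symbol, measured 13.8 ± 3.48 CPM in N, 12.1 ± 3.47 in bIP, 147 ± 48.2 in bRG and 420 ± 176 in aRG. Its fall in bIP against bRG (log2 fold change -3.61, SE 0.38 in edgeR, adjusted p = 3.78e-06) was steeper than its fall in bRG against aRG (-1.52, SE 0.30, adjusted p = 0.0116), while KIF14 had the reverse, and the difference between the 2 genes was not tested.

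Of the kinesin-2 motors, which carry vesicles in axons and build cilia, KIF3A and KIF3C rose in both N and bIP against radial glia. KIF3C, a subunit that pairs with KIF3A, measured 269 and 204 CPM in N and 214, 208 and 141 in bIP, against 64.3, 54.2, 47.6 and 46.5 in bRG and 53.8, 44.5, 40.2 and 57.4 in aRG. The N and bIP libraries overlapped, as did bRG and aRG, and the lowest library of N and bIP was above every radial glia library. KIF3C rose in N against bRG (log2 fold change 2.15, SE 0.26 in edgeR, adjusted p = 1.13e-05) and by 1.82 on that scale in bIP against bRG (SE 0.23 in edgeR, adjusted p = 2.99e-05). In bRG against aRG the value was 0.12 (SE 0.22, adjusted p = 0.915).

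KIF3A, the common subunit of these motors, measured 445 and 398 CPM in N and 343, 336 and 306 in bIP, against 190, 152, 233 and 143 in bRG and 212, 145, 146 and 162 in aRG. N lay above bIP, and bIP above both radial glia populations. Its log2 fold change was 1.24 in N against bRG (SE 0.25 in edgeR, adjusted p = 0.00164) and 0.87 in bIP against bRG (SE 0.23 in edgeR, adjusted p = 0.0115). Without bIP library 1 the second one missed the threshold (adjusted p = 0.0506).

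KIF3B, the other partner of KIF3A, measured 229 ± 72.0 CPM in N, 169 ± 48.1 in bIP, 95.9 ± 31.95 in bRG and 94.0 ± 49.6 in aRG. It was called higher in N against bRG (log2 fold change 1.26, edgeR adjusted p = 0.033) and N against aRG (1.29, adjusted p = 0.0285). In bIP it was not called by edgeR with all libraries against bRG (adjusted p = 0.143) or aRG (0.124). Without aRG library 1 edgeR called it higher in bIP against aRG (log2 fold change 1.23, adjusted p = 0.022). Without neuron library 1 neither N call held (adjusted p = 0.288 and 0.285), and the first call also ended without bRG library 2, 3 or 4 or the unnumbered neuron library (0.0511 to 0.0677) and the second without aRG library 3 or 4 (0.0785 and 0.0969). Of the counts of KIF3B and KIF3C together, KIF3C took 51.2% ± 3.09 in N, 53.0% ± 2.06 in bIP, 36.5% ± 4.90 in bRG and 36.9% ± 11.2 in aRG. KIFAP3, the accessory subunit that joins these motors to cargo, had the smallest p-value among 19 cargo adaptors in each of the 4 comparisons of N or bIP with radial glia. It measured 194 ± 37.5 CPM in N, 157 ± 29.4 in bIP, 40.98 ± 24.0 in bRG and 38.9 ± 10.1 in aRG. KIF17, a kinesin-2 motor that works as a homodimer, measured 11.3 ± 5.01 CPM in N, 9.44 ± 3.19 in bIP, 3.04 ± 2.31 in bRG and 4.57 ± 2.18 in aRG. Of the 6 comparisons edgeR called it in N against bRG (log2 fold change 1.89, adjusted p = 0.0425), and that call held in 4 of 13 removals of a library, with adjusted p of 0.0537 to 0.32 in the other removals. In bIP against bRG edgeR did not call KIF17 (1.63, adjusted p = 0.0624), while DESeq2 (0.0261) and edgeR without bRG library 2 (0.011) did.

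The kinesin-1 heavy chains, which carry mitochondria, vesicles and RNA, did not move together. KIF5A, the form most restricted to neurons, measured 375 and 393 CPM in N and 263, 332 and 344 in bIP, against 131, 129, 207 and 99.0 in bRG and 71.9, 96.1, 111 and 128 in aRG. No radial glia library reached the lowest bIP library, and bRG and aRG overlapped. The fitted log2 fold change was 1.91 in N against aRG (SE 0.29 in edgeR, adjusted p = 8.54e-05) and 1.14 in bIP against bRG (SE 0.26 in edgeR, adjusted p = 0.00468).

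KIF5B, the form made in most tissues, had its highest level in aRG. It measured 469 and 457 CPM in N, 382, 411 and 361 in bIP, 364, 362, 605 and 437 in bRG and 776, 563, 511 and 780 in aRG. All bIP libraries lay below all aRG libraries, and bRG overlapped with both. It fell in bIP against aRG (log2 fold change -0.77, SE 0.24 in edgeR, adjusted p = 0.0334), the opposite direction to most called transport kinesins. The call ended without aRG library 1 or 4 or any 1 bIP library (edgeR adjusted p = 0.0827 to 0.114) and in the second deposited table (0.134). KIF5C, the third form and also enriched in neurons, measured 1019 ± 233 CPM in N, 907 ± 255 in bIP, 770 ± 219 in bRG and 652 ± 278 in aRG. It was called by edgeR in no comparison with all libraries, and in N against aRG without aRG library 1 (adjusted p = 0.0486). Of the counts of the 3 genes, KIF5A took 20.8% ± 3.23 in N, 20.0% ± 5.52 in bIP, 10.4% ± 1.40 in bRG and 7.71% ± 2.87 in aRG. KIF5B took 23.1% and 26.8% in N, 22.1% to 27.4% in bIP, 25.3% to 40.6% in bRG and 40.8% to 56.7% in aRG.

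Among the light chains, which link kinesin-1 to cargo, edgeR called KLC4 in the hg38 table. KLC4 measured 87.2 ± 11.9 CPM in N, 101 ± 27.5 in bIP, 69.5 ± 13 in bRG and 42.2 ± 12.8 in aRG. It rose in bIP against aRG (log2 fold change 1.26, SE 0.28 in edgeR, adjusted p = 0.00282) and in N against aRG (1.05, SE 0.30, adjusted p = 0.0197), and the second call ended without aRG library 3 or 4 or either neuron library (0.0578, 0.0747, 0.169 and 0.0601). KLC1, the main neuronal light chain, measured 216 ± 21.5 CPM in N and 145 ± 19.2 in aRG (log2 fold change 0.58, edgeR adjusted p = 0.0842). In the second deposited table KLC1 was called higher in N against aRG (1.08, edgeR adjusted p = 0.0124) and in N against bRG (1.08, 0.0134), and in the hg38 table it passed in N against aRG without bRG library 3 (0.0438). KLC2 measured 20.3 ± 4.27 CPM in N and 11.8 ± 2.47 in aRG, and KLC3 measured 9.00 ± 0.45 CPM in N and 3.12 ± 1.11 in aRG. With all libraries edgeR called neither. DESeq2 called KLC2 higher in bIP against bRG (adjusted p = 0.0343) and in N against bRG (0.0411), and KLC3 higher in bIP against aRG (0.0133). KLC3 held 694 counts over the 13 libraries.

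KIF1A, the kinesin-3 motor of synaptic vesicle precursors, measured 659 and 491 CPM in N, 617, 656 and 356 in bIP, 301, 297, 251 and 232 in bRG and 373, 358, 262 and 269 in aRG. Library 3 of bIP overlapped with aRG, and all other N and bIP libraries lay above the radial glia. It was called higher in bIP and N against each radial glia population, with log2 fold changes of 0.78 to 1.09 (edgeR adjusted p = 0.0082 to 0.0337). In the second deposited table, counted on a gorilla build, KIF1A held 902 counts against 43829 here, and 3 of these 4 directions turned (-0.38, -0.94 and -0.11 in bIP against bRG, N against bRG and N against aRG). Each of the 4 calls also ended when single libraries were left out. They were bIP library 1 or 2 for both bIP comparisons (adjusted p = 0.0513 to 0.184), aRG library 3 or 4 for both aRG comparisons (0.0859 to 0.107), neuron library 1 for both N comparisons (0.136 and 0.303), and the unnumbered neuron library for N against aRG (0.0597).

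KIF13A, a kinesin-3 motor of endosomes and recycling vesicles, was lower in N and bIP than in both radial glia populations. It measured 14.2 and 16.9 CPM in N and 32.2, 19.4 and 18.3 in bIP, against 95.4, 85.0, 124 and 94.3 in bRG and 109, 106, 90.6 and 98.3 in aRG. Every radial glia library was above every N and bIP library, and bRG and aRG overlapped. Its log2 fold change was -2.69 in N against aRG (SE 0.32 in edgeR, adjusted p = 8.97e-06), -2.68 in N against bRG (SE 0.32 in edgeR, adjusted p = 1.34e-05) and -2.10 in bIP against bRG (SE 0.26 in edgeR, adjusted p = 2.43e-05). The calls held in every alternative fitted. Unlike the mitotic kinesins, its level did not differ between bRG and aRG beyond the spread (log2 fold change -0.017, SE 0.23, adjusted p = 0.991). Its sister KIF13B measured 20.2 ± 1.84 CPM in N, 15.6 ± 1.10 in bIP, 21.6 ± 6.16 in bRG and 16.1 ± 5.40 in aRG and was called in no comparison under any setting.

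The minus-end motors KIFC3 and KIFC2, which move the other way along microtubules than most kinesins, had the largest fitted rises of the transport group in N and bIP against bRG. KIFC3, studied mostly at cell junctions and the Golgi apparatus, measured 114 and 76.0 CPM in N and 93.5, 96.4 and 52.4 in bIP, against 19.3, 25.5, 7.55 and 11.2 in bRG and 26.6, 30.8, 19.9 and 15.9 in aRG. All N and bIP libraries stood above the radial glia. On the log2 scale the fold change was 2.59 in N against bRG (SE 0.41 in edgeR, adjusted p = 0.000195) and 1.80 in bIP against aRG (SE 0.38 in edgeR, adjusted p = 0.00206). KIFC2, known from mouse as a motor of dendrites and axons, measured 19.5 and 48.2 CPM in N and 16.7, 35.7 and 23.6 in bIP, against 7.69, 5.56, 0.83 and 3.62 in bRG and 1.26, 5.00, 11.1 and 4.02 in aRG. N and bIP again lay above all radial glia, but the 2 neuron libraries were far apart. In N against bRG the log2 fold change was 2.95 (SE 0.69 in edgeR, adjusted p = 0.0049), and it was 2.16 without the unnumbered neuron library (adjusted p = 0.125), a removal that also ended the call in N against aRG (0.198). In bIP the call against aRG ended without aRG library 4 (0.0549) or bIP library 2 (0.0927), and that against bRG without bIP library 2 (0.0538). The annotation overlaps KIFC2 with the protein-coding gene FOXH1.

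Of the transport group, 10 members were not called in the test over the 4 populations. KIF1B, a motor of mitochondria and vesicles, measured 795 ± 102 CPM in N, 619 ± 50.0 in bIP, 674 ± 170 in bRG and 667 ± 113 in aRG. KIF1C measured 16.8 ± 0.22 CPM in N, 15.0 ± 1.45 in bIP, 15.4 ± 4.23 in bRG and 14.5 ± 2.93 in aRG, and its highest mean was 1.16 times its lowest. KIF16B, a motor of early endosomes, measured 48.7 ± 8.66 CPM in N and 31.9 ± 8.64 in aRG (log2 fold change 0.61, edgeR adjusted p = 0.214). The failure to pass the threshold does not show that these levels are equal. In simulated data of this design with 200 genes changed, 2-fold changes were recovered for 8.96% of genes in bRG against aRG. For N against aRG the figure was 4.48%. The measured data gave 3320 calls in N against aRG, which loosens the adjusted threshold. Recovery there may thus have been higher than simulated.

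**Figure D3:**
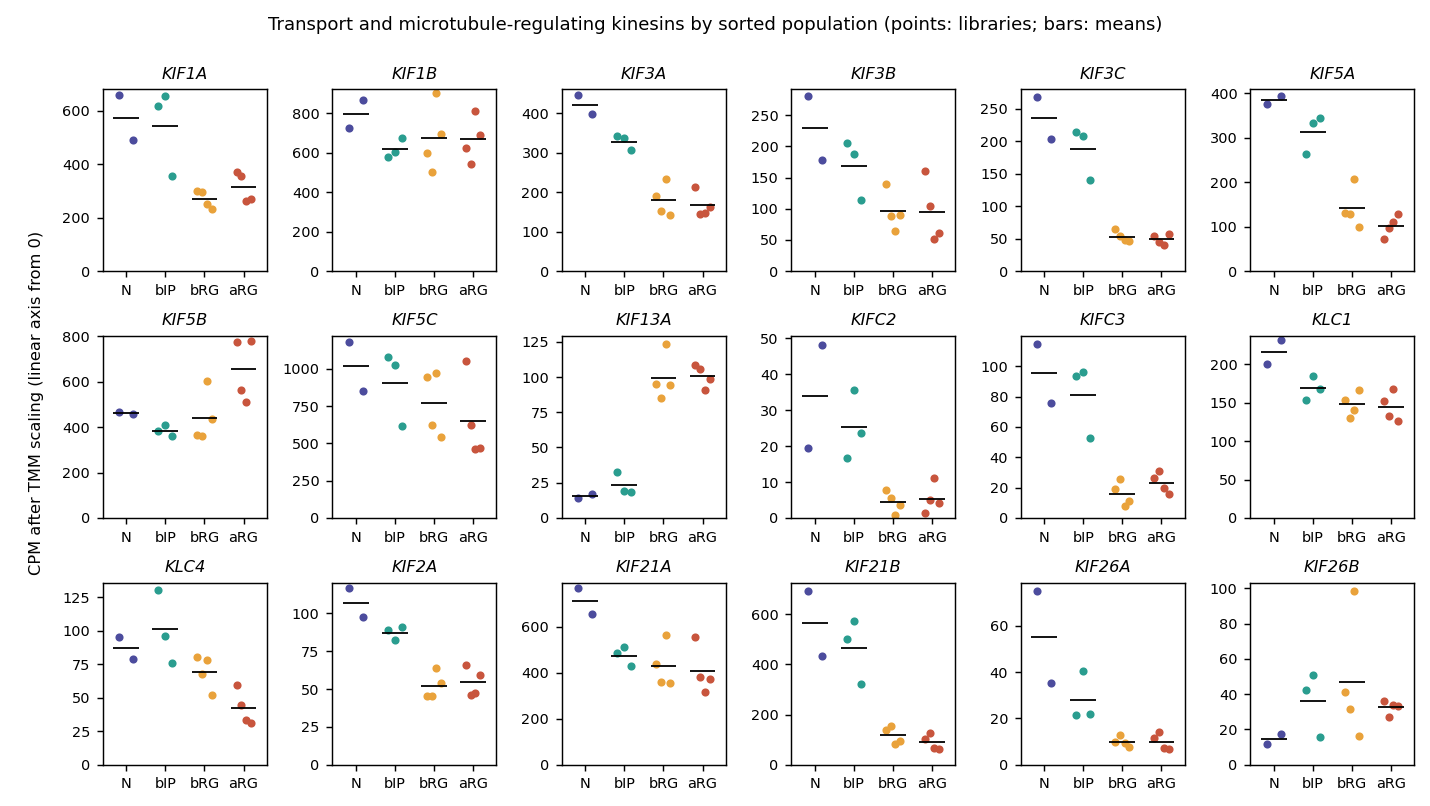
Levels of 18 transport and microtubule-regulating kinesins and light chains in CPM after TMM scaling (linear axes from 0, a scale for each gene) in N, bIP, bRG and aRG; each point is 1 library and each bar the mean of a population. KIF3C, KIF5A, KIF21B and KIFC3 are high in all N and bIP libraries, KIF13A is low there (at most 32.2 CPM, against at least 85.0 in the radial glia), and KIF1B is level.

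Among kinesins that act on microtubule ends or on signalling, KIF21B had the largest fitted rise of any kinesin in N against aRG, with KIFC2 next to it at 2.64 on the log2 scale. KIF21B, a kinesin-4 motor that limits microtubule growth in neurons, measured 693 and 434 CPM in N and 502, 571 and 321 in bIP, against 139, 156, 82.8 and 94.9 in bRG and 102, 127, 65.7 and 64.6 in aRG. Every N and bIP library stood far above every radial glia library. The fitted log2 fold change was 2.65 in N against aRG (SE 0.34 in edgeR, adjusted p = 1.71e-05) and 1.98 in bIP against bRG (SE 0.31 in edgeR, adjusted p = 0.000201). Its sister KIF21A measured 711 ± 79.5 CPM in N, 474 ± 42.3 in bIP, 429 ± 97.9 in bRG and 406 ± 103 in aRG. With all libraries edgeR called it in N against aRG (log2 fold change 0.81, adjusted p = 0.0403), and that call held in 4 of 13 removals of a library, with adjusted p of 0.0506 to 0.254 in the others. Against bRG the N level was called higher without bRG library 3 (0.0117) or aRG library 1 (0.0463).

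KIF26A, an atypical kinesin without motor activity, measured 75.0 and 35.4 CPM in N and 21.4, 40.5 and 21.8 in bIP, against 9.74, 12.9, 9.43 and 7.71 in bRG and 11.4, 14.0, 7.28 and 6.80 in aRG. The neuron libraries overlapped with bIP and were themselves wide apart, and both populations were above all radial glia. On the log2 scale the fold change was 2.47 in N against bRG (SE 0.41 in edgeR, adjusted p = 0.000284) and 1.49 in bIP against bRG (SE 0.38 in edgeR, adjusted p = 0.00984), and without bIP library 2 the second was 1.12 (adjusted p = 0.0952) and the call in bIP against aRG ended too (0.0821). Its sister KIF26B went the other way, at 11.8 and 17.2 CPM in N and 42.2, 51.0 and 15.8 in bIP, against 41.01, 31.8, 98.7 and 16.5 in bRG and 36.3, 27.1, 33.7 and 33.1 in aRG. The bRG libraries ran from the level of the neurons to the highest value of the gene. KIF26B was called lower in N against bRG (log2 fold change -1.70, SE 0.58 in edgeR, adjusted p = 0.0489). That call held in 3 of 13 removals of a library, with adjusted p of 0.0533 to 0.268 in the others, and without bRG library 3 the log2 fold change was -1.03.

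KIF2A, a microtubule depolymerase that in mouse prunes axon branches, measured 107 ± 13.4 CPM in N, 87.4 ± 4.55 in bIP, 52.2 ± 8.62 in bRG and 54.9 ± 9.64 in aRG. It was called higher in all 4 comparisons of N or bIP with radial glia, by 0.67 to 1.04 on the log2 scale. The 2 N calls ended without neuron library 1 (edgeR adjusted p = 0.0919 against bRG and 0.128 against aRG). The bIP calls held in 3 of 13 removals against aRG and in 7 against bRG, with adjusted p of 0.0507 to 0.132 and 0.0548 to 0.0962 where they ended. KIF2A and the mitotic KIF2C belong to 1 subfamily, and in N the mean of KIF2C was 45.9 times lower than in aRG while that of KIF2A was 2.05 times higher than in bRG, its lowest population.

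Of the ciliary and centriolar kinesins, KIF24 followed the mitotic group. KIF24, which shortens microtubules at the mother centriole and holds back cilium formation, measured 4.41 and 8.02 CPM in N and 3.73, 5.41 and 5.21 in bIP, against 16.2, 19.0, 3.30 and 22.2 in bRG and 46.6, 53.4, 91.0 and 122 in aRG. Library 3 of bRG lay at the level of bIP and N, and the other 3 bRG libraries stood between them and aRG. Its log2 fold change was -2.37 in bRG against aRG (SE 0.46 in edgeR, adjusted p = 0.00963) and -4.02 in bIP against aRG (SE 0.56 in edgeR, adjusted p = 4.44e-05), and the first call ended without aRG library 4 (adjusted p = 0.0635). It was also lower in N against aRG (-3.65, SE 0.66, adjusted p = 0.000511). In bIP against bRG it was called at an adjusted p of 0.0336, which held in 7 of 13 removals and was 0.0568 to 0.128 in the others.

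KIF7, the ciliary kinesin of Hedgehog signalling, was level, at 91.6 ± 15.2 CPM in N, 94.7 ± 11.3 in bIP, 96.1 ± 37.6 in bRG and 89.7 ± 12.9 in aRG, with log2 fold changes of -0.068 to 0.099 over the 6 comparisons. KIF27, its paralogue, measured 56.0 ± 3.78 CPM in N, 44.1 ± 4.77 in bIP, 80.0 ± 26.8 in bRG and 63.9 ± 10.7 in aRG. It was called lower in bIP against bRG (log2 fold change -0.86, edgeR adjusted p = 0.0388), a call that held in 6 of 13 removals, with adjusted p of 0.0519 to 0.157 in the others. KIF19, which in mouse sets the length of motile cilia, was low and uneven, at 1.71 ± 0.18 CPM in N, 4.62 ± 1.17 in bIP, 11.3 ± 9.79 in bRG and 7.62 ± 3.90 in aRG. It was called lower in N against bRG (log2 fold change -2.71, edgeR adjusted p = 0.0373), and the call ended without bRG library 1 or 2 or either neuron library (0.0674, 0.0957, 0.166 and 0.223). KIF6 and KIF9, both of motile cilia, were called by edgeR in no comparison with all libraries. KIF6 measured 17.7 ± 11.7 CPM in bRG and 14.8 ± 3.78 in aRG, and KIF9 measured 11.7 ± 3.40 CPM in bRG and 8.78 ± 1.85 in aRG. Without bRG library 3 KIF6 was called lower in bIP and N against bRG and in N against aRG (adjusted p = 0.0123, 0.00508 and 0.0423). KIF12 and KIF25 were not called either, and had 211 and 392 counts over the 13 libraries.

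The adaptors that couple kinesins to cargo and the dynein motor that runs against them gave smaller counts of changes than the mitotic partners. Of 19 adaptors 9 rose and 1 fell in N against bRG, 8 rose and 1 fell in N against aRG, 6 rose and 1 fell in bIP against aRG and 5 rose and 1 fell in bIP against bRG. MAPK8IP2, a JNK scaffold carried by kinesin-1, measured 123 ± 24.1 CPM in N, 103 ± 26.3 in bIP, 25.05 ± 10.4 in bRG and 22.3 ± 9.93 in aRG. HAP1, which links vesicles to both kinesin-1 and dynactin, was the adaptor that fell, at 3.03 ± 0.47 CPM in N, 4.05 ± 1.63 in bIP, 21.7 ± 2.54 in bRG and 15.7 ± 6.51 in aRG. Of 21 dynein and dynactin genes 8 rose and 0 fell in N against bRG, 5 rose and 1 fell in N against aRG, 5 rose and 2 fell in bIP against aRG and 7 rose and 1 fell in bIP against bRG. Over these 4 comparisons the share that rose was 26.3% to 47.4% of adaptors and 23.8% to 38.1% of dynein and dynactin genes, where 8.25% to 10.6% of all genes rose. The share that fell was 5.26% of adaptors and at most 9.52% of dynein and dynactin genes, where 8.44% to 9.98% of all genes fell, so the falls were no more frequent than among all genes. DYNC1I1, the neuronal dynein intermediate chain, measured 62.8 ± 21.2 CPM in N, 50.3 ± 22.5 in bIP, 9.20 ± 2.53 in bRG and 7.99 ± 3.30 in aRG (log2 fold change in N against aRG 2.99, SE 0.42 in edgeR, adjusted p = 5.13e-05). NDE1, a dynein regulator needed for progenitor divisions, measured 15.2 ± 10.5 CPM in N, 14.4 ± 1.28 in bIP, 28.2 ± 5.36 in bRG and 65.3 ± 13.8 in aRG and fell in bIP and N against aRG. No adaptor and no dynein or dynactin gene was called in bRG against aRG or in N against bIP by edgeR. Of all genes, 1.23% were lower and 0.0298% higher in bRG against aRG, and 0.113% were called in N against bIP.

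**Figure D4:**
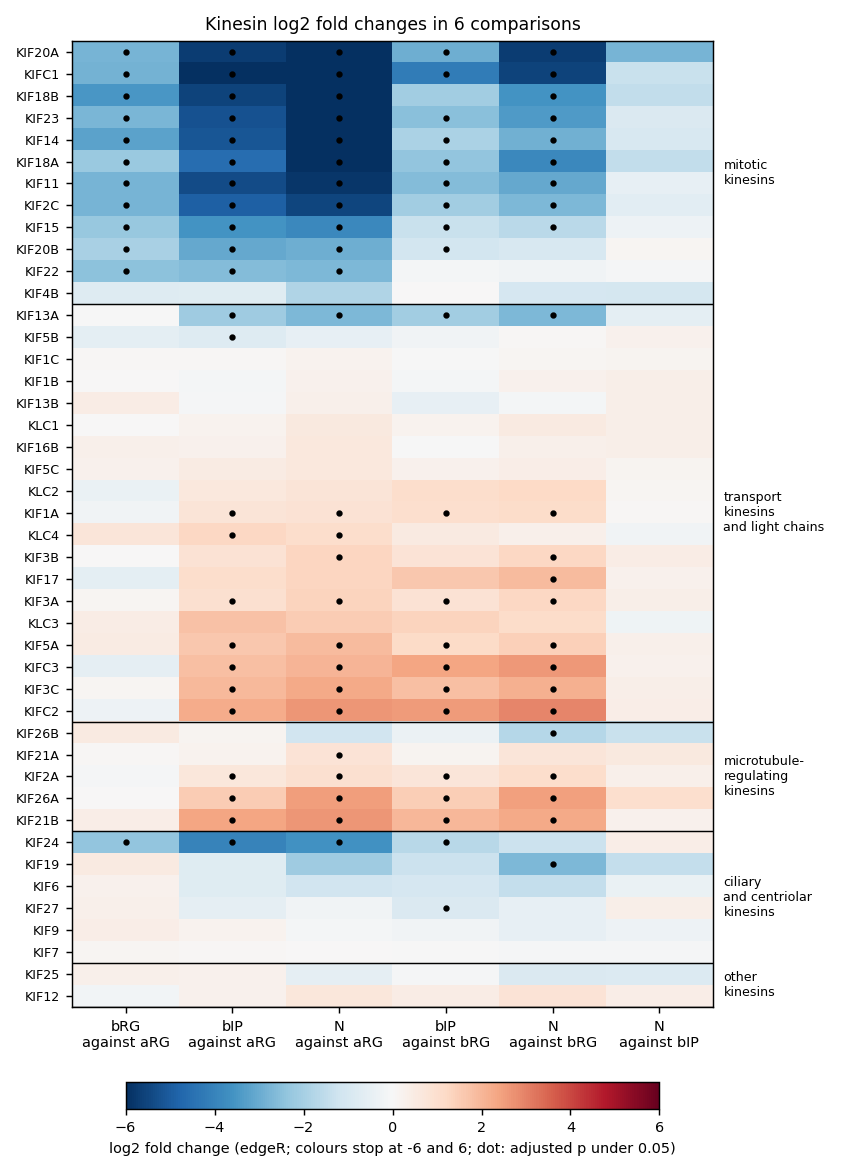
edgeR log2 fold changes of the 44 tested kinesins and light chains (rows, by group) in the 6 comparisons (columns), blue for lower and red for higher in the first-named population, with colours that stop at -6 and 6 and a dot where the adjusted p is under 0.05. The bRG against aRG column has dots in 11 mitotic kinesins and KIF24 only, the N against bIP column has none, and KIF13A is the transport kinesin with dots on blue in 4 columns.

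The rise of 7 transport kinesins in bIP against aRG went with neuron markers, of which 9 of 10 rose in bIP against aRG, and with Cajal-Retzius markers, of which 7 of 8 rose. Of all genes, 8.47% rose in that comparison. Within bIP the Cajal-Retzius sum was 3746, 2750 and 1409 CPM in libraries 1 to 3. Of 19 transport kinesins and light chains, library 3 was the lowest of the 3 in 11, library 1 in 7 and library 2 in 1. Libraries 1 and 2 were each the highest in 8 and library 3 in 3. Whether the kinesin levels go with the Cajal-Retzius sums was not tested. The N libraries, at 256 and 212 CPM of the Cajal-Retzius markers, had mean levels of KIF3C, KIF5A, KIF21B and KIFC3 above those of bIP, with none of the 4 called. Radial glia markers fell in all 10 cases in bIP and in N against either radial glia population, where 8.44% to 9.98% of all genes fell. The part of these other genes in the kinesin values was not tested.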

How the data were processed

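RNA was measured in 13 libraries of 4 sorted populations, whose groups come from the labels. What the authors deposited were 2 tables of whole-number read counts by gene symbol, with no normalization. The first holds 18137 genes counted on hg38, and the second 60583 named genes on the gorilla build gorGor6, which is known from the table's name alone. Per the submitters' processing notes, STAR and hg38 were used, with no role stated for either. The counter, annotation and strand setting were not given in the sources used here. A gorGor6 row with no gene name, 0.00351% to 0.00768% of counts, was left out. The members, gene lists and tests were chosen with earlier results of these data known.

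The hg38 counts went into edgeR 4.0.16 under R 4.3.3 for a quasi-likelihood F-test with TMM scaling, in 1 fit of all 13 libraries with a mean per population, on 16804 genes kept by filterByExpr (minimum count of 10). Adjusted p-values are Benjamini-Hochberg values over all of these genes. A standard error is the fold change divided by the root of its F value. CPM are mean ± SD. Alternatives were DESeq2 1.42.0, its size factors in edgeR, the gorGor6 table, no low-count filter, a replicate block, leaving out each library in turn, and a fit restricted to the 2 populations compared. Chi-square values per degree of freedom between libraries of 1 population were 10.6 to 92.4, and no library was treated as a repeat of another.

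Library values were given for the 5 mitotic kinesins of smallest p in bRG against aRG, the 8 transport and microtubule-regulating kinesins of smallest p over the populations, and members that went against their group. Outside this rule, library values were also given for KIF1A, KIF18B and KIF24, and for KIF20A and KIFC1 in some populations. The test was first run on simulated counts, with 200 genes changed in each comparison. For bRG against aRG it recovered 60.6% of 66 genes changed 4-fold among 16497 genes, and for N against bIP 43.9% of 66 among 16456. Intervals and spreads cover these libraries only. No sequence or position was used.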

Additional observations from a re-analysis of the deposited data

Results flagged for a closer look

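Among 90 groups of 4 libraries looked at, 1 per kinesin for bRG and for aRG, 3 held a library whose gap to the others was large for the range of the group, and chance alone would give this in about 1 group in 20. KIF1C, a motor of Golgi and vesicle transport, measured 9.08 CPM in bRG library 3, while the other 3 bRG libraries lay at 16.8 to 18.1 CPM. The same library had the highest share of MALAT1. KIF2C measured 352 CPM in aRG library 4, with the other aRG libraries at 177 to 204 CPM. KIFC1 measured 227 CPM there, with the others at 106 to 118 CPM. Without aRG library 4 both KIF2C and KIFC1 were still called lower in bRG.

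KIF4A, a chromokinesin that works with PRC1 at the central spindle, is a row of the gorGor6 table and not of the hg38 table, and it was outside the comparisons above. RefSeq places it on the X chromosome in gorilla. It had 6527 counts there over the 13 libraries, from 9 to 2237 per library. Its level was 1.13 ± 1.02 CPM in N (n = 2), 1.40 ± 0.67 in bIP (n = 3), 15.8 ± 6.46 in bRG and 80.0 ± 35.0 in aRG (n = 4 each). In that table KIF4A was lower in bRG than in aRG by a log2 fold change of -2.34 (SE 0.44 in edgeR, adjusted p = 0.00973). It was also lower in bIP than in bRG (-3.50, SE 0.54 in edgeR, adjusted p = 0.000168) and in N than in bRG (-3.83, SE 0.66 in edgeR, adjusted p = 0.000437). Between N and bIP it was not called (-0.33, SE 0.62, adjusted p = 1). The KIF4A levels thus ran in the same order of populations as those of KIF14 and KIF23.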

How the results depend on the processing

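The number of kinesins called moved by at most 1.5 times under every alternative in 5 of the 6 comparisons and in the test over the 4 populations. Leaving out each library in turn gave 10 to 12 calls in bRG against aRG, 19 to 25 in bIP against aRG, 14 to 23 in bIP against bRG, 16 to 24 in N against bRG, 20 to 29 in N against aRG and 23 to 29 over the populations. For N against bIP the count was 0, and it was 0 to 1 with a library left out (1 without bIP library 1) and 1 with DESeq2, each time KIF20A. Of 105 calls of a kinesin over the comparisons, 75 held in every setting fitted and 30 ended in at least 1. Of 159 pairs of a kinesin and a comparison not called, 21 (14 kinesins) were called in at least 1 alternative, 7 of them by DESeq2 and 11 without bRG library 3. KIF1A turned round in the gorGor6 table, where its log2 fold change was -0.375 in bIP against bRG, -0.941 in N against bRG and -0.113 in N against aRG. It held 0.0206 times its hg38 counts there, where the median kinesin of 38 held 1.73 times.

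The fit with the replicate number as a block (replicate block) had to drop the unnumbered neuron library, which leaves 1 neuron library, assumed to vary like the other groups. It called 12, 24, 21, 0, 18 and 20 kinesins in bRG against aRG, bIP against aRG, bIP against bRG, N against bIP, N against bRG and N against aRG. Leaving out that library with no block gave 12, 23, 20, 0, 16 and 21. Deviations of same-numbered libraries correlated at -0.0127 to 0.387 (median 0.112, 13 pairs) and those of other pairs at -0.28 to 0.26 (median -0.0853, 49 pairs). Same-numbered pairs thus had the higher median, with overlapping ranges. Whether the numbers pair the libraries was not settled, and the main tests left the numbers out. With 2 neuron libraries, 2-fold changes in N were seldom recovered in simulated data with 200 genes changed (0% against bIP, 2.99% against bRG). The measured data gave 3321 calls in N against bRG, so recovery there may have been higher.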
